A study of Mus musculus with 2 samples.

Results

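Astrocyte nuclei of the mouse hippocampus were described in 2 single-nucleus RNA libraries. Members were chosen by measured values: a nucleus was taken when it held at least 500 genes, at least 800 unique molecular identifiers (UMIs, 1 per captured RNA molecule) and under 5% mitochondrial UMIs, had at least 1 UMI in at least 4 of 9 astrocyte markers (Aqp4, Gja1, Slc1a3, Bmpr1b, Ntsr2, Fgfr3, Slc4a4, Gli3 and Prex2), had at most 6 UMIs of the neuronal gene Syt1 and had at most 2 UMIs of the myelin genes Mog and Mag together. The rule gave 1248 of the 25957 nuclei that passed the depth and mitochondrial limits. They were 564 of 13429 nuclei (4.20%, exact 95% interval 3.87 to 4.55) in 1 library and 684 of 12528 (5.46%, 5.07 to 5.87) in the other. Together the members held 1667365 and 2509329 UMIs, with medians of 2824 and 3543.5 UMIs and 1670 and 1855 genes per nucleus.

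The first library came from the hippocampus of Bcas2F/F mice, whose Bcas2 gene is floxed, that had received AAV2/9-Syn-cre, a virus carrying Cre recombinase under a synapsin promoter. Its genotype label reads Bcas2 knockdown, and it is called the library labelled knockdown. The second came from Bcas2F/F mice given AAV-vehicle and is called the control, although its genotype label reads WT. The synapsin promoter is active in neurons, so astrocytes lie outside the cells in which the labels place Cre. How many mice went into each library, how old they were and which part of Bcas2 is floxed were not stated in the labels. Each group has 1 library, so the spread between animals could not be measured. No test was made, every interval is at 95% and covers counting error only, and every difference below is between these 2 libraries. Mice of both sexes contributed to both libraries: of the members, 236 and 198 carried UMIs of Y-linked genes without Xist, and 187 and 353 carried Xist without Y-linked genes. The libraries held 16693 and 12621 barcodes with 90594923 and 41781481 UMIs. They shared 56 cell barcodes, which included 5 members of the library labelled knockdown and 0 of the control.

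Astrocytes are the glia that take up synaptic glutamate and potassium, convert glutamate to glutamine, hand lactate and lipids to neurons and cover blood vessels with endfeet. They are joined into networks by connexin gap junctions. In the dentate gyrus, radial glia-like stem cells of adult neurogenesis share many of their genes. Neurotrophin signalling, named in the title of the study, reaches astrocytes through Ntrk2, the gene of the receptor TrkB, which they are known to carry mainly in a form without the kinase.

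The choice of members rested on the 9 markers, so their detection is described and supports nothing. Among nuclei within the Syt1, Mog and Mag limits, the number of markers detected formed 2 groups in both libraries, with few nuclei between them. In the library labelled knockdown 1525 nuclei had 0 markers, 72 had 3, 56 had 4 and 162 had 6. In the control 1132 had 0, 162 had 3, 74 had 4, 52 had 5 and 193 had 7. The lowest count between the groups was thus at 4 markers in the library labelled knockdown and at 5 in the control. Both lie inside the threshold. Just inside the threshold, nuclei with exactly 4 markers carried Slc1a2, the main glutamate transporter and not part of the rule, at 30.1 UMIs per 10000 in the library labelled knockdown and 9.50 in the control. Just outside, with 3 markers, the values were 5.47 and 3.92, and with 5 markers 40.4 and 46.4. The control nuclei at exactly 4 markers thus carried less Slc1a2 than those of the other library, and 55.4% of them had a UMI of it. The limit on Syt1 removed 256 and 68 nuclei that had 4 or more markers, of median depth 10312.5 and 10986 UMIs, and the limit on Mog and Mag removed 24 and 223. At the Syt1 limit, 4 and 3 nuclei held exactly 6 UMIs and were kept, and 5 and 0 held 7 and were left out. At the Mog and Mag limit, 12 and 124 nuclei held exactly 2 UMIs and were kept, and 9 and 64 held 3 and were left out.

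**Figure D1:**
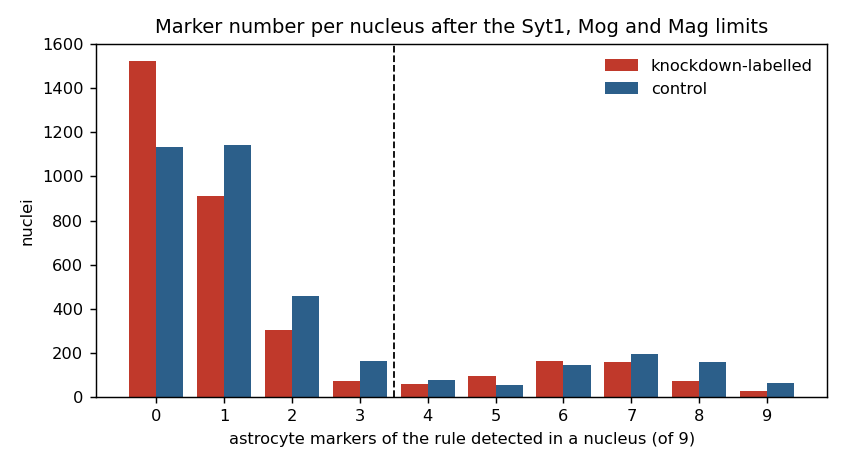
Number of the 9 astrocyte markers detected per nucleus (x axis) against the number of nuclei (y axis) after the Syt1, Mog and Mag limits, in the library labelled knockdown (red) and in the control (blue). Members lie to the right of the dashed line between 3 and 4 markers, and both libraries have a second group of nuclei there, reaching 162 nuclei at 6 markers in the library labelled knockdown and 193 at 7 in the control.

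The levels of the 9 markers were close in the 2 libraries. Levels are UMIs of a gene per 1000000 UMIs of its class in that library (CPM), and a gene is called higher or lower where it differed by at least 1.5-fold between the libraries. Ratios are log2 values, the library labelled knockdown divided by the control after 0.5 UMI was added to each. Slc1a3, the glutamate transporter GLAST, stood at 2735 CPM in the library labelled knockdown and 2536 CPM in the control, and was detected in 99.5% and 98.7% of the nuclei. Prex2, a Rac exchange factor, stood at 1828 and 1677 CPM, and Slc4a4, the sodium bicarbonate cotransporter, at 1217 and 1376 CPM. Gja1, the gap junction protein connexin 43, stood at 546 and 664 CPM, the widest gap of the 9 (log2 ratio -0.28, -0.40 to -0.16). Aqp4, the water channel of endfeet, stood at 147 and 167 CPM. Ntsr2, a neurotensin receptor, Gli3, a transcription factor of Hedgehog signalling, Bmpr1b, a receptor of bone morphogenetic proteins, and Fgfr3, a fibroblast growth factor receptor, had log2 ratios from -0.18 to -0.05. Aqp4 was detected in 32.3% and 36.5% of the members, so a nucleus could be a member without it. With every nucleus thinned to 1000 UMIs, which left out 5 and 1 nuclei, Aqp4 was found in 12.9% (10.2 to 15.9) and 15.5% (12.9 to 18.5) of them, against 0.480% and 0.555% of oligodendrocytes treated the same way.

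Astrocyte markers outside the rule stood high in both libraries. Of 30 further markers, 0 were higher and 2 were lower in the library labelled knockdown, with a median log2 ratio of -0.13. Over all 10013 genes with at least 50 UMIs in the members, 13.2% were higher and 7.59% lower, 20.8% in either direction, with a median of 0.018. Slc1a2 had 7770 UMIs (4660 CPM) in the library labelled knockdown and 13422 UMIs (5349 CPM) in the control. Glul, glutamine synthetase, stood at 1093 and 1258 CPM, Apoe, the lipid carrier, at 1828 and 1937 CPM, and Clu, the extracellular chaperone clusterin, at 1316 and 1147 CPM. All these levels were above those of the highest of 4 comparison classes (neurons, oligodendrocytes, oligodendrocyte precursors and microglia, each set by its own markers), which for Slc1a2 were 368 and 355 CPM. The markers past 1.5-fold were Kcnj10, the inward rectifier potassium channel Kir4.1 (55.2 and 96.8 CPM, log2 ratio -0.81, -1.17 to -0.46), and Phkg1, a catalytic subunit of phosphorylase kinase (332 and 531 CPM, -0.68, -0.82 to -0.53). Oligodendrocytes also express Kcnj10, and the highest comparison class reached 68.2 and 113 CPM. Gfap, the intermediate filament protein, had 129 UMIs (77.4 CPM) against 262 UMIs (104 CPM), a ratio of -0.43 (-0.75 to -0.12). Without the nuclei led by genes of another class, described below, the median ratio was -0.23 over the 9 rule markers and -0.24 over the 30 further ones, of which 0 were higher and 3 lower.

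**Figure D2:**
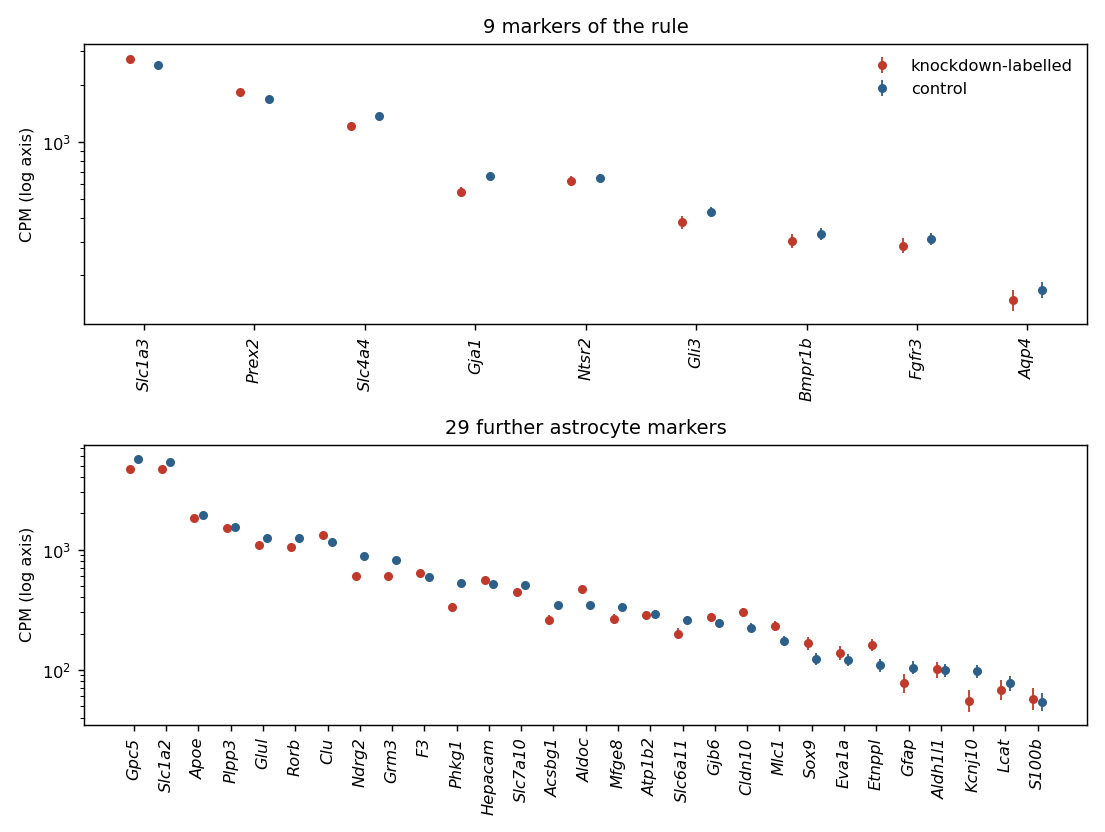
Level in CPM (log axis) of the 9 markers of the rule (upper panel) and of 29 of the 30 further astrocyte markers (lower panel) in astrocyte nuclei of the library labelled knockdown (red) and in the control (blue), with exact 95% Poisson intervals as bars, which cover counting error only. Slc1a3 leads the rule markers with 2735 and 2536 CPM, and Kcnj10 shows the widest gap of the further markers with 55.2 and 96.8 CPM.

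The genes outside the rule that set the members apart most from the 4 comparison classes, by the smaller fold of the 2 libraries, included several of known astrocyte function. Heph, the ferroxidase hephaestin, stood at 64.8 and 75.3 CPM against at most 0.628 and 0.868 CPM in any comparison class. Grin2c, a subunit of the NMDA receptor, stood at 214 and 260 CPM against 4.02 and 3.24 CPM. Slco1c1, a transporter of thyroid hormone, stood at 543 and 783.5 CPM, Itih3, a hyaluronan-binding serum protein, at 618 and 522 CPM, and Cbs, cystathionine beta-synthase, at 135 and 181 CPM. Etnppl, the ethanolamine-phosphate phospho-lyase, Acsbg1, a long-chain acyl-CoA synthetase, Id4, an inhibitor of basic helix-loop-helix factors, and Sdc4, a heparan sulfate proteoglycan, were also among the 20. Gene models without an assigned function were among them too, such as Gm35552 (112 and 150.2 CPM), which had the largest fold. Of the 20 genes, 18 lay within 1.5-fold between the libraries. The exceptions were Phkg1 and C030018K13Rik (94.2 and 176 CPM, log2 ratio -0.90, -1.18 to -0.64), both lower in the library labelled knockdown. Over all genes measured, 20.8% were past 1.5-fold. The 20 were picked by the smaller fold, with at least 100 UMIs in each library. That choice favours genes of like level, so the count of 18 supports nothing.

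Promoter sequence is shown for 3 genes that the results turn on: Slc1a3, the best-detected marker of the rule, Gfap, which differed among sub-clusters, and Agt, the angiotensinogen gene, which differed among sub-clusters and between the libraries. The sequences are the 250 bases before the RefSeq start on the strand of the gene, from GRCm38.p6, an earlier build than that of the counts: chr15:8710808-8711057, chr11:102897201-102897450 and chr8:124569707-124569956, all on the minus strand. Capitals mark TTGGC or its reverse complement GCCAA, the half-site of nuclear factor I (NFI), whose genes Nfia, Nfib and Nfix stand among the astrocyte transcription factors.
Slc1a3: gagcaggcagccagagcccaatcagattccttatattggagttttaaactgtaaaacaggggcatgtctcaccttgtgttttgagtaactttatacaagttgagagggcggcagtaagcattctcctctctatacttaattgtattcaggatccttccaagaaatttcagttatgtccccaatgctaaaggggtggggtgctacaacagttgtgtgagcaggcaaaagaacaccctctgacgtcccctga
Gfap: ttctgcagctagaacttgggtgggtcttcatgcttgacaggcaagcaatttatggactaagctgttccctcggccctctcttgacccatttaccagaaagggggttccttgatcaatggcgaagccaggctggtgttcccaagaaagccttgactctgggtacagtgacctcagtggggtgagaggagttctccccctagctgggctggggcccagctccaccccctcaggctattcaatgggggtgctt
Agt: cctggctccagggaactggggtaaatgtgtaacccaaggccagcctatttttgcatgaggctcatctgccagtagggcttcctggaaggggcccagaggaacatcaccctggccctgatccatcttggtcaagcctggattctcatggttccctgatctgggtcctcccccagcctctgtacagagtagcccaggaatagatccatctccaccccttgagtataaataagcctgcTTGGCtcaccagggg
The half-site was found in the window of Agt and in neither of the other two. Of the 9 rule markers, 7 had an entry, with 11 windows, and 36.4% of these windows held it. For the further markers, 26 of 30 had an entry and 55.9% of 34 windows held it, and over all 32851 windows of the same length the share was 41.5%.

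Markers of other cell types were present among the members and differed between the libraries. Neuron markers summed to 4763 CPM in the library labelled knockdown and 1253 CPM in the control, with 13 of 15 higher and a median log2 ratio of 1.96. Meg3, a long noncoding RNA abundant in neurons, stood at 2128 and 198 CPM, and Syt1, the vesicle calcium sensor that the rule limits, at 426 and 63.4 CPM. Oligodendrocyte markers summed to 691 and 2131 CPM, with all 13 measured markers lower, such as Mbp, myelin basic protein, at 115 and 253 CPM. Precursor markers summed to 491 and 1147 CPM (10 of 11 lower), microglia markers to 199 and 457 CPM (8 of 9 lower) and fibroblast markers to 196 and 422 CPM (4 of 6 lower). The nuclei of the 2 libraries outside the members moved the same way, with 7846 and 682 nuclei in the neuron class and 2093 and 8295 in the oligodendrocyte class. Thinned to 1000 UMIs, 84.3% and 13.3% of the astrocyte nuclei held a UMI of Meg3, close to the 88.5% and 12.2% of oligodendrocytes, which should lack it. Endothelial markers summed to 22.8 and 45.0 CPM, with 0 of 8 at 50 UMIs, mural markers to 164 and 177 CPM, and ependymal and choroid plexus markers to 122 and 111 CPM. What these RNAs contribute to any one difference below was not tested, except where a value without the nuclei or the RNA concerned is given.

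Some of this RNA stood in separate nuclei. Clustering of the members, without the genes of the rule and with each library centred on its own mean, gave 9 sub-clusters. Of these, 4 (numbers 6 to 9) were led by genes of fibroblasts or of other glia, and sub-cluster 3, described further on, was led by genes of neurons. Sub-cluster 6 (6 nuclei of the library labelled knockdown and 34 of the control) was led by genes of fibroblasts and the meninges, among them Slc6a20a, Slc6a13, Eya2 and Lama1. It held 0 CPM of Aqp4 and 236 CPM of Slc1a2, and 36 of its 40 nuclei had exactly 4 markers. Sub-cluster 7 (5 and 30 nuclei) was led by the precursor genes Lhfpl3, Pcdh15 and Tnr, sub-cluster 8 (6 and 16 nuclei) by the microglia genes Inpp5d and Ikzf1, and sub-cluster 9 (10 and 11 nuclei) by genes that include the oligodendrocyte genes St18 and Prr5l. Sub-clusters 7 to 9 kept Slc1a2 at 1961, 3479 and 3859 CPM. A doublet caller, whose calls were not used to choose members, marked 14 of the 21 and 38 of the 57 nuclei in sub-clusters 7 to 9, but 0 of 6 and 2 of 34 in sub-cluster 6, and 8 of 537 and 5 of 593 in sub-clusters 1 to 5. Sub-clusters 6 to 9 made up 4.79% of the members in the library labelled knockdown and 13.3% in the control, and the label of astrocyte nuclei goes against their leading genes. Values without these nuclei, an alternative chosen after the data were seen, are given where they change a call or the count of a gene list. Without them, precursor markers summed to 396 and 530.0 CPM and fibroblast markers to 148 and 209 CPM, while neuron markers stood at 4829 and 1040 CPM and oligodendrocyte markers at 558 and 1989 CPM.

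The other 5 sub-clusters all carried the astrocyte markers, and they differed among themselves. Their leading genes define them and are described, not tested. Sub-cluster 1 (197 and 260 nuclei) had the highest Slc1a2 (6376 CPM) and Gja1 (830 CPM), and was led by Thbs4, a thrombospondin (111 CPM against 23.5 CPM in the other members), Hsd11b1, which regenerates active glucocorticoid (116 against 29.6 CPM), and Ramp2, a partner protein of the calcitonin-like receptor (105.5 against 47.5 CPM). Sub-cluster 2 (127 and 159 nuclei) was led by Fos, an immediate early transcription factor (88.4 against 24.0 CPM), and Gem, a small GTPase, and carried high Luzp2 and Pde10a. Sub-cluster 3 (142 and 85 nuclei) had the highest Gfap (188 CPM) and Aqp4 (299.6 CPM) of the 9. Its leading genes were those of neurons, such as Reln (94.6 against 22.1 CPM) and Galntl6 (132 against 33.4 CPM). Over both libraries together, its neuron markers summed to 4078 CPM, against 2103 and 2190 CPM in sub-clusters 1 and 2. Sub-cluster 3 held 25.2% of the members in the library labelled knockdown and 12.4% in the control. How far this mix of libraries enters the pooled levels was not tested. In the library labelled knockdown, Meg3 stood at 2444 CPM in sub-cluster 3, against 1908 and 2049.6 CPM in sub-clusters 1 and 2. Syt1 in that library was lower in sub-cluster 3, at 384 CPM against 463 and 482 CPM. In the control, Meg3 stood at 374 CPM in sub-cluster 3, against 90.04 and 161 CPM. These 3 sub-clusters are the bulk of the members and are not sharply separated. At resolution 0.3 in place of 0.5, 98.9%, 64.0% and 73.1% of their nuclei fell into 1 common cluster.

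Sub-cluster 4 (42 and 56 nuclei) stood apart by regional genes. It was led by Itih3 (2508 against 402.5 CPM), Etnppl (625 against 89.8 CPM), Hr, a nuclear corepressor (198 against 7.25 CPM), and Gria1, an AMPA receptor subunit (1337 against 242 CPM). Agt, the precursor of angiotensin, stood at 475 CPM, against 61.5 to 165 CPM in sub-clusters 1 to 3, and Slc6a11, the GABA transporter GAT-3, at 779 CPM, against 184 to 245 CPM. The forebrain transcription factors of the dorsal telencephalon were low in it: Emx2 stood at 9.57 CPM, Lhx2 at 15.95 CPM and Pax6 at 25.5 CPM, against 138 to 174, 65.8 to 97.5 and 94.9 to 151 CPM in sub-clusters 1 to 3. Of its nuclei, 96.9% stayed together at resolution 0.3 and 94.9% at resolution 1, but 46.9% without centring of the libraries.

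Sub-cluster 5 (29 and 33 nuclei) had little Aqp4 (29.1 CPM) and Gja1 (257 CPM) but the highest Slc1a3 (3388 CPM). It was led by Veph1 (170 against 0.756 CPM), Adgrv1, an adhesion receptor (694 against 31.2 CPM), and Fstl5, a follistatin-like protein (296 against 13.9 CPM). Genes that are known in radial glia-like stem cells of the dentate gyrus were highest in it: Hopx stood at 155 CPM and Frzb, a secreted Wnt antagonist, at 77.7 CPM. Hopx lay between 33.4 and 79.3 CPM in sub-clusters 1 to 3. All of its nuclei stayed together under each of the other clustering settings. Its leading 10 genes hold no gene of the marker lists and it stays unnamed.

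**Figure D3:**
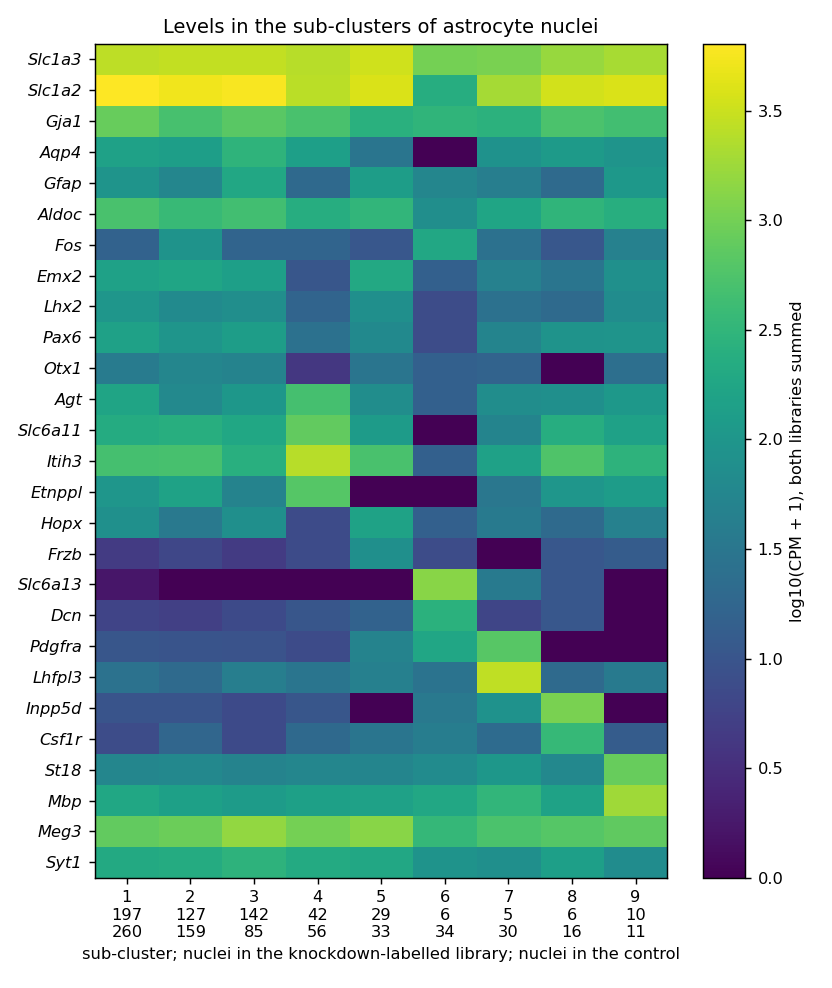
Level of 27 genes (rows), as log10 of CPM plus 1 over both libraries, in the 9 sub-clusters of astrocyte nuclei (columns, with the number of nuclei of the library labelled knockdown and of the control below each number). Slc1a3 is present throughout, Agt and Itih3 are highest in sub-cluster 4 where Emx2 is low, Hopx and Frzb stand highest in sub-cluster 5, and sub-clusters 6 to 9 carry genes of other classes, with Aqp4 at 0 in sub-cluster 6.

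Over all 10013 genes measured, 1324 were higher and 760 lower in the library labelled knockdown. With free RNA subtracted, an alternative described under processing, 1045 of 8326 genes were higher and 995 lower. With scaling factors from edgeR, 1139 of 10013 were higher and 928 lower. Without sub-clusters 6 to 9, 1362 of 9365 (14.5%) were higher and 551 (5.88%) lower. Without sub-cluster 3 as well, also chosen after the data were seen, 395 and 508 nuclei were left, and 1168 of 8323 genes (14.0%) were higher and 561 (6.74%) lower. Restricted to the 1602 genes whose level in the members was above that in each comparison class of both libraries, 100 (6.24%) were higher and 97 (6.05%) lower, with a median log2 ratio of -0.031. These were 75 (4.76%) and 110 (6.98%) of 1577 without sub-clusters 6 to 9, with a median of -0.080. The gene groups below were described against these shares. Each group is given by its measured members, those with at least 50 UMIs over the 2 libraries.

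Bcas2, which the label names and whose protein belongs to the Prp19 complex of the spliceosome, was higher in astrocyte nuclei of the library labelled knockdown. It had 63 UMIs there (37.8 CPM, 29.0 to 48.3) against 43 in the control (17.1 CPM, 12.4 to 23.1), and the log2 ratio was 1.14 (0.56 to 1.74). The intervals of the 2 levels do not overlap. In the control the members had the lowest level of the 5 classes, below microglia (26.4 CPM, 19.6 to 34.9) and precursors (29.9 CPM, 22.2 to 39.4), whose intervals reach below 23.1 CPM. In the library labelled knockdown they stood between precursors (37.0 CPM) and neurons (39.4 CPM), with overlapping intervals, and microglia were highest (62.3 CPM). The level was also the larger in the library labelled knockdown in the other 4 classes, at 39.4 and 37.4 CPM in neurons, 50.7 and 31.7 CPM in oligodendrocytes, 37.0 and 29.9 CPM in precursors and 62.3 and 26.4 CPM in microglia. Among sub-clusters, only sub-cluster 1 (21 and 15 UMIs) had an interval above 0 (1.19, 0.18 to 2.27). The ratios of sub-clusters 2 to 5 were above 0 with intervals that include it, and sub-clusters 4 and 5 rest on 3 against 2 and 4 against 0 UMIs. The ratio over the members was 1.19 without sub-clusters 6 to 9 and 1.28 without sub-cluster 3 as well. Thinned to 1000 UMIs, 19 of 559 nuclei (3.40%, 2.06 to 5.26) and 11 of 683 (1.61%, 0.807 to 2.86) held a UMI of it, and these intervals overlap. Counts of 3′ ends cannot tell a recombined allele from an intact one, so these values do not check the label.

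The Prp19 complex and the spliceosome, which remove introns from nascent RNA, were measured with 35 of 38 genes. Of these, 7 (20%) were higher and 0 lower, against 13.2% and 7.59% over all genes, with a median log2 ratio of 0.17. Beside Bcas2 they were Prpf19, the ubiquitin ligase that names the complex (59.4 and 35.9 CPM, 0.73, 0.30 to 1.16), and the small ribonucleoprotein genes Snrpn, Snrpd3, Snrpb, Snrpg and Snrpd2. Snrpn, which is abundant in neurons, had the largest ratio (1.80), at 63.0 and 17.9 CPM against 155 and 123 CPM in the highest comparison class. The interval of Snrpd2 (0.70, -0.15 to 1.57) includes 0. Cdc5l, a core partner of Prpf19, had a ratio of -0.18 (-0.62 to 0.24), and Sf3b1, the branch-point factor, 0.32 (0.16 to 0.49). With genes of at least 200 UMIs alone, the median of the group was -0.0012.

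Of 10 measured genes of glutamate handling, 3 were higher, 2 lower and 5 in between, with a median of -0.17. The counts were 3 and 1 without sub-clusters 6 to 9, and the median -0.24. The uptake and synthesis genes Slc1a2 and Glul both had a ratio of -0.20, and Glud1, glutamate dehydrogenase, -0.14. Slc7a11, the cystine-glutamate exchanger, was lower, with 202 UMIs (121 CPM) against 533 (212 CPM) and a ratio of -0.81 (-1.05 to -0.57). Without sub-clusters 6 to 9 its ratio was -0.45 and no longer past 1.5-fold. Ednrb, the endothelin receptor B that is counted in this group, stood at 138 and 222 CPM (-0.68) and at -0.73 without those nuclei. Among the 3 higher genes were Got1 (an aspartate aminotransferase, 1.27) and Slc38a1 (a glutamine transporter, 0.78). For Got1, at 41.4 and 17.1 CPM in the members, the highest comparison class reached 59.6 and 35.01 CPM.

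Of 18 genes of potassium and water handling and of the endfoot, 1 was higher and 3 lower, with a median of -0.13. Beside Kcnj10, the lower genes were Slc12a2, a sodium-potassium-chloride cotransporter (26.4 and 60.2 CPM), and Car2, a carbonic anhydrase (109 and 192 CPM), which both stood higher in a comparison class. Atp1b1, a subunit of the sodium pump abundant in neurons, was the gene higher in the group (475 and 98.8 CPM). The group also holds Mlc1 (233 and 173 CPM, 0.42), Dtna (1276 and 1359 CPM) and Dmd (699 and 758 CPM) of the endfoot protein complex. Of the gap junction list, Gjb6, connexin 30, stood at 273 and 244 CPM, and 0 of 3 measured genes passed 1.5-fold.

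Transport of GABA and glycine was measured with 11 genes, of which 1 was higher and 2 lower (median -0.28), or 1 and 1 without sub-clusters 6 to 9 (median -0.33). Slc6a11, the GABA transporter GAT-3, stood at 200.3 and 262 CPM, with a ratio of -0.39. Slc6a9, the glycine transporter, was lower, with 33 UMIs (19.8 CPM) against 112 (44.6 CPM), a ratio of -1.16 (-1.78 to -0.60) and of -1.07 without sub-clusters 6 to 9. Its level in the highest comparison class was above both (64.5 and 91.6 CPM). Aldh1a1, an aldehyde dehydrogenase, was the other lower gene, at -0.51 without those nuclei, and Gabbr2, a GABA receptor subunit with higher levels in a comparison class, was the higher one (149 and 92.5 CPM). Gabrb1, another GABA receptor subunit, stood at 2071 and 2695 CPM (-0.38).

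Receptors for transmitters and peptides had 4 of 17 genes higher and 3 lower, with a median of 0.085. With sub-clusters 6 to 9 left out, 5 were higher and 2 lower, as Grik4 passed 1.5-fold (1.00) and Adora1 did not (-0.52). The 4 higher genes, Cnr1, Chrm3, Grm5 and Gria1, stood higher still in a comparison class. The lower genes were Ednrb and the adenosine receptors Adora1 and Adora2b. Grm3, the metabotropic receptor of adult astrocytes, stood at 606 and 817 CPM (-0.43), S1pr1, a receptor of sphingosine phosphate, at 422 and 398 CPM (0.09), and Grin2c had a ratio of -0.28. Calcium signalling genes had 3 of 15 higher and 2 lower (median 0.10), or 4 and 1 without sub-clusters 6 to 9 (median 0.071). Itpr2, the store release channel of astrocytes, stood at 258 and 369 CPM, a ratio of -0.52 (-0.69 to -0.35).

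Of 26 lipid and cholesterol genes, 0 were higher and 2 lower (median -0.12). The lower genes were Fabp7, the brain lipid-binding protein, with 16 UMIs (9.60 CPM) against 71 (28.3 CPM), and Idi1 of the sterol pathway (25.2 and 41.8 CPM, -0.72). Acsl3, an acyl-CoA synthetase, stood at 1463 and 1116 CPM (0.39, 0.31 to 0.47). Of 17 genes of glycolysis, glycogen and lactate, 0 were higher and 1, Phkg1, was lower (median -0.014). Aldoc, the brain aldolase, had 789 UMIs (473 CPM) against 862 (344 CPM), a ratio of 0.46 (0.32 to 0.60), and Ppp1r3c, which targets phosphatase to glycogen, stood at 94.2 and 132 CPM (-0.49). Ppp1r3c was lower too (-0.59) without sub-clusters 6 to 9, and the median was -0.087.

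Genes that organise synapses and matrix included 0 of 22 higher and 2 lower, with a median of -0.20. The lower genes numbered 3 without sub-clusters 6 to 9 (median -0.28), with Ncan, the matrix proteoglycan neurocan, at -0.63. Sparcl1, the synaptogenic protein hevin, stood at 2226 and 1991 CPM (0.16), and Gpc5, a glypican, at 4716 and 5731 CPM (-0.28). Tnc, tenascin C, was lower (25.8 and 45.4 CPM, -0.81, -1.36 to -0.30). Vcan, a precursor marker, was lower as well, with 24.6 and 95.2 CPM, and sub-cluster 7, of which the control held most nuclei, carried it at 878 CPM.

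Of 43 genes of reactive astrocytes, 9 were measured, and 1 of them was higher and 2 lower, with a median of -0.26. Fbln5, the elastic fibre protein fibulin 5, was the higher gene and is described below. Vim, vimentin, had 22 and 40 UMIs, C4b, a complement component, 67 and 119 (40.2 and 47.4 CPM), and Stat3, the transcription factor of reactive change, stood at 110 and 112 CPM. The lower genes were Aspg, an asparaginase (13.8 and 23.5 CPM, -0.75), and Il6st, the receptor subunit gp130 (29.4 and 48.2 CPM, -0.71). Once sub-clusters 6 to 9 were left out, 8 were measured, 2 of them higher and 1 lower (median -0.16): H2-D1, a class I histocompatibility gene, was higher (0.65), and Il6st was within 1.5-fold (-0.54). Of the other 34 genes, too low to be measured, 3 had 0 UMIs in both libraries. Heat shock genes had 0 of 11 higher and 1 lower (median -0.19), and without those nuclei Hspd1, a mitochondrial chaperonin, was higher (0.65). The lower gene was Cryab, a small heat shock protein (14.99 and 62.2 CPM), which stood at 131 and 351 CPM in the highest comparison class.

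Glucocorticoid-responsive and clock genes were measured with 27 genes, 1 higher and 3 lower, with a median of -0.041. The counts became 1 higher and 2 lower without sub-clusters 6 to 9, and the genes changed: Fkbp5, a chaperone of the glucocorticoid receptor, was higher (0.82), while Plin4 (0.57) and Zbtb16 (-0.48) were within 1.5-fold. Of the clock genes, Per1 stood at 82.8 and 85.3 CPM, Dbp at 44.4 and 47.8 CPM and Arntl at 88.8 and 101 CPM, all within 1.5-fold. Plin4, a lipid droplet protein, was the higher gene, and Zbtb16, Sgk1 and Errfi1 were the lower ones. Errfi1, an inhibitor of EGF receptor signalling, had a ratio of -1.52 (-1.87 to -1.20), which was -0.61 without sub-clusters 6 to 9. Of 17 metallothionein and antioxidant genes, 2 were higher and 1 lower, with a median of 0.16. Mt1 stood at 548 and 489 CPM, Mt2 at 182 and 155 CPM and Mt3 at 373 and 442 CPM. Txnrd1, thioredoxin reductase (0.67), and Sod1, superoxide dismutase (0.59), were the higher genes, and Slc7a11, counted here too, was the lower. Txnrd1 alone was past 1.5-fold without sub-clusters 6 to 9, and Sod1 stood at 0.42.

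Of 30 astrocyte transcription factors, 2 were higher and 0 lower, with a median of -0.053. The higher genes were Id1 (29.4 and 17.9 CPM, 0.71, 0.10 to 1.33) and Id3 (132 and 83.3 CPM, 0.66, 0.38 to 0.94), inhibitors of basic helix-loop-helix factors that respond to bone morphogenetic proteins. Their relatives Id2 and Id4 had ratios of 0.10 and 0.19. In nuclei thinned to 1000 UMIs the ratio of Id1 was -0.22. Sox9, the glial fate factor, stood at 166 and 122 CPM (0.44, 0.20 to 0.68), and Nfia, Nfib and Nfix at 1229 and 1394, 690 and 792, and 124 and 161 CPM, with ratios from -0.38 to -0.18. In the list of Notch, Hedgehog, BMP and FGF signalling, 0 of 20 were higher and 1, Tgfbr1, lower (median -0.24). Notch2 (-0.60) was the lower gene of 19 without sub-clusters 6 to 9, and Tgfbr1 stood at -0.38. Gli1, a readout of Hedgehog signalling that is counted with the transcription factors, stood at 60.0 and 41.8 CPM (0.52, 0.11 to 0.93), and Ptch1, the Hedgehog receptor, at 325 and 297 CPM (0.13).

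BDNF and TrkB genes were measured with 20 of 25, of which 1 was higher and 2 lower (median -0.11). The neurotrophin receptor gene Ntrk3 was higher too (0.68) without sub-clusters 6 to 9, and the median was -0.032. Ntrk2 had 2134 UMIs (1280 CPM) against 2799 (1115 CPM), a ratio of 0.20 (0.12 to 0.28). Without sub-clusters 6 to 9 that ratio was 0.089 (0.0043 to 0.174), and its interval included 0 in each of sub-clusters 1 to 5. The level of Ntrk2 was above the highest comparison class in both libraries (542 and 465 CPM), and the counts do not separate its forms with and without the kinase. Of the genes downstream, Shc1 and Gab1, adaptor proteins, were lower (19.8 and 33.1 CPM, and 76.2 and 119 CPM), and Sorcs3, a sortilin-related receptor, was higher (48.6 and 31.1 CPM), with 462 and 459 CPM in the highest comparison class.

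Immediate early genes, which are switched on within minutes of stimulation, had 6 of 13 higher and 1 lower, a share of 46.2% higher against 13.2% over all genes, with a median of 0.50. Without sub-clusters 6 to 9 the count was 7 of 12 and the median 0.76. The median was 0.064 in nuclei thinned to 1000 UMIs, 0.057 with 3 markers required, 0.12 with free RNA subtracted and -0.050 in female nuclei. Junb, a subunit of the AP-1 factor, had 85 UMIs (51.0 CPM) against 47 (18.7 CPM), a ratio of 1.44 (0.91 to 1.99). Without sub-clusters 6 to 9, where the control held most of its UMIs, it had 77 against 19 UMIs, and its interval lay above 0 in 4 of sub-clusters 1 to 5. Fos had 70 UMIs (42.0 CPM) against 90 (35.9 CPM), a ratio of 0.23 (-0.24 to 0.69). Gadd45g, a growth arrest gene, was the lower gene (33.6 and 55.4 CPM, -0.71, -1.20 to -0.26). The other higher genes were Jund, Nr4a1, Nr4a3, Dusp1 and Klf6. Except for Dusp1, the higher genes stood above the members in a comparison class of both libraries, Junb at 72.3 and 61.5 CPM in microglia. The level of Junb was also the larger in the library labelled knockdown in the other comparison classes. It stood at 55.7 and 27.9 CPM in neurons, 44.4 and 9.15 CPM in oligodendrocytes, and 43.4 and 4.79 CPM in precursors.

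Genes of radial glia-like stem cells and neuroblasts were mostly too low to be measured among the members: 5 of 19 reached 50 UMIs, of which 0 were higher and 3 lower. Hopx stood at 59.4 and 61.0 CPM and Sox2 at 169 and 157 CPM. The lower genes were Lpar1 (14.4 and 38.7 CPM), Sox4 (10.8 and 24.3 CPM) and Cdk6 (4.20 and 19.1 CPM, 7 and 48 UMIs), which all stood higher in a comparison class. Of these genes, 4 were measured and 2 were lower without sub-clusters 6 to 9.

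Of 20 regional identity genes, 2 were higher and 1 lower, with a median of -0.16. Agt had 333 UMIs (200 CPM, 179 to 222) in the library labelled knockdown and 233 UMIs (92.9 CPM, 81.3 to 106) in the control, a ratio of 1.10 (0.86 to 1.35). Thinned to 1000 UMIs, 16.3% (13.3 to 19.6) and 8.35% (6.38 to 10.7) of the nuclei held a UMI of it. Its ratio was above 0 in each of sub-clusters 1 to 5, with 4 intervals above 0. The lowest, 0.060 in sub-cluster 2, had an interval that includes 0 (-0.79 to 0.86). The highest, 1.95 in sub-cluster 5 (0.22 to 4.57), rests on 12 against 3 UMIs. In sub-cluster 4, where its level was highest, Agt stood at 719 and 328 CPM. Its ratio was 1.69 in female nuclei and 0.57, short of 1.5-fold, in male nuclei. Lhx2, Emx2 and Pax6, factors of the forebrain, had ratios of 0.14, -0.06 and 0.42, and Nr2f1, a factor graded along the cortex, was lower (61.2 and 104 CPM, -0.76). Crym, the other higher gene, reached 63.3 and 36.8 CPM in the highest comparison class, above the members.

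**Figure D4:**
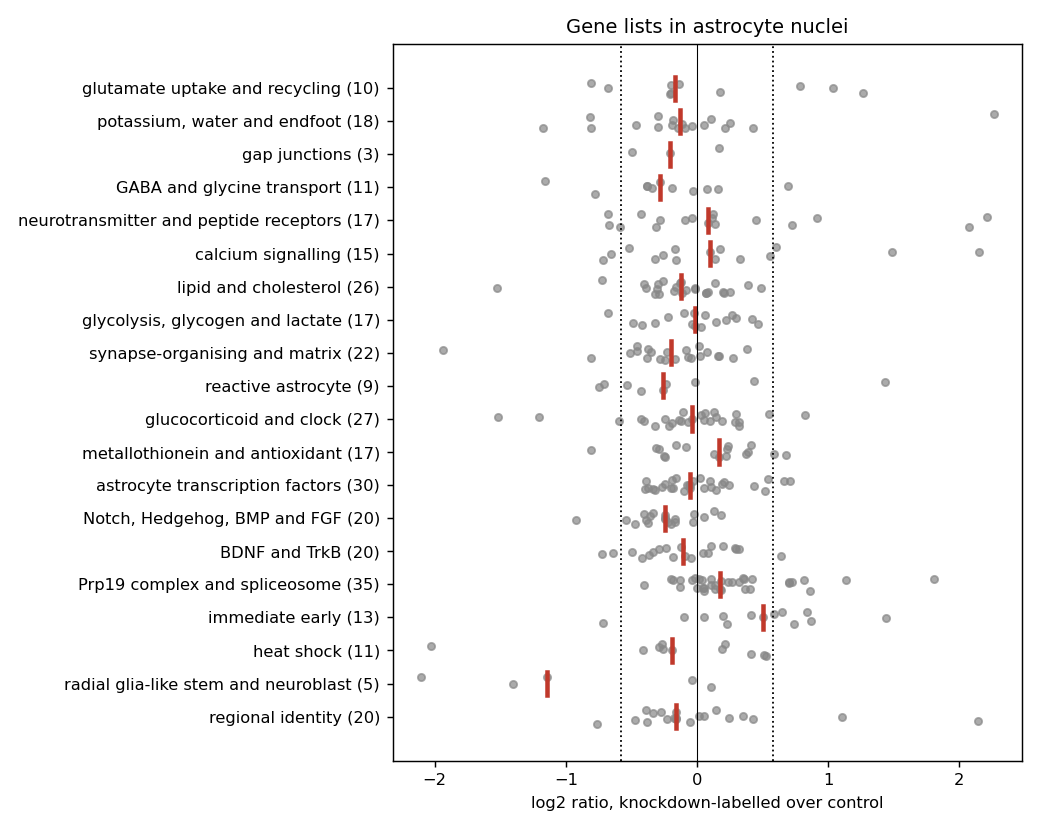
Log2 ratio of the library labelled knockdown over the control (x axis) for the measured genes (grey points) of 20 gene lists in astrocyte nuclei (y axis, with the number of measured genes). Red bars are the medians and dotted lines mark 1.5-fold. Most points lie between the dotted lines. The Prp19 and spliceosome list has 7 of 35 points (20%) beyond the right line and 0 beyond the left. Over all genes these shares were 13.2% and 7.59%. The median of the immediate early list is 0.50.

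Genes were then ranked by their ratio among those with at least 100 UMIs and detection in 5% of the members in the library where they were higher, and with a level there at or above that of each comparison class. A gene enters this ranking through the library where it is high, and the sub-clusters divide the same nuclei, so the ratios and their split are a description and neither supports the other. In the control, Txnip, Kifc3, Bsg, Mrpl41 and Atp5d of the 12 higher genes lay below a comparison class, such as Txnip at 50.6 against 82.5 CPM. The highest was Ramp2, with 199 UMIs (119 CPM, 103 to 137) in the library labelled knockdown and 79 UMIs (31.5 CPM, 24.9 to 39.2) in the control, which gave a log2 ratio of 1.92 (1.54 to 2.32). It was detected in 24.3% and 9.80% of the nuclei, and in 10.7% (8.29 to 13.6) and 3.37% (2.15 to 5.01) of thinned nuclei. Its interval lay above 0 in 4 of sub-clusters 1 to 5, while sub-cluster 4 held 3 against 5 UMIs (25.4 and 25.6 CPM). The ratio was 1.91 without sub-clusters 6 to 9 and 2.04 without sub-cluster 3 as well. Ramp2 was also higher in the library labelled knockdown in each comparison class. It stood at 12.3 and 4.92 CPM in neurons, 14.7 and 6.42 in oligodendrocytes, 39.1 and 17.3 in precursors, and 20.1 and 6.47 in microglia. Fbln5 followed with 75.6 and 27.9 CPM (1.43, 1.00 to 1.88), against at most 2.11 and 4.86 CPM in a comparison class, and 8.23% (6.09 to 10.8) and 2.34% (1.34 to 3.78) of thinned nuclei held a UMI of it. Its interval lay above 0 in 4 of the 5 sub-clusters. Mrpl41, of the mitochondrial ribosome, stood at 122 and 50.2 CPM, Bsg, the basigin chaperone of lactate transporters, at 172 and 77.7 CPM (1.14, 0.87 to 1.41), and the gene model Gm9925 at 543 and 249 CPM (1.12, 0.98 to 1.27). The ratio of Bsg lay between 0.80 and 1.38 in the 5 sub-clusters, with 3 intervals above 0, and that of Gm9925 between 0.88 and 2.17, with all 5 above 0. Txnip, the thioredoxin-interacting protein that responds to glucose, stood at 102 and 50.6 CPM (1.01, 0.67 to 1.35), with all 5 intervals above 0. Tmem218, Agt, Atp5d (a subunit of ATP synthase), Kifc3 (a kinesin), Chst1 (a sulfotransferase) and Coq10b (a coenzyme Q binding protein) made up the 12, with ratios from 0.94 to 1.12. In the library labelled knockdown, the levels of Mrpl41, Bsg, Gm9925, Tmem218, Atp5d, Chst1 and Coq10b were also the larger in each comparison class. In oligodendrocytes Mrpl41 stood at 82.7 and 56.3 CPM, Bsg at 157 and 63.4 CPM and Chst1 at 73.5 and 7.94 CPM. The levels of Fbln5 and Txnip in neurons and microglia were the larger in the control. So were those of Agt in neurons and of Kifc3 in precursors. The ratios of these genes with free RNA subtracted are not given here. How far such shifts across classes enter the ratios of the members was not otherwise tested.

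Among the 12 lowest genes, some rested on sub-clusters 6 to 9 and others did not. Eya2, a transcriptional coactivator, had 14 UMIs (8.40 CPM) against 148 (59.0 CPM), a ratio of -2.77 (-3.72 to -2.02), but 7 against 5 UMIs and 0.87 without those sub-clusters. Vtn (vitronectin), Bicc1 (an RNA-binding protein) and Cped1 also turned from -1.46, -1.20 and -0.95 to 0.42, 0.30 and 0.26. Lama1, a laminin of basement membranes, had 31 against 154 UMIs, and 1 against 10 UMIs without them, where its ratio was -2.39 (-8.34 to -0.087). Pde10a, a phosphodiesterase of cyclic nucleotides, had 771 UMIs (462 CPM, 430.3 to 496) against 3183 (1268 CPM, 1225 to 1313), a ratio of -1.46 (-1.57 to -1.34) that was -1.53 without those nuclei. Its intervals lay below 0 in each of sub-clusters 1 to 5. Pde7b, a phosphodiesterase of cyclic AMP, stood at 304 and 602 CPM (-0.98, -1.13 to -0.84), was detected in 47.7% and 72.5% of the nuclei, and its ratios of -1.32 to -0.74 in the 5 sub-clusters likewise had intervals below 0. Pde10a is known for strong expression in striatal neurons, and in the neuron class it stood at 738 and 506 CPM. Its level was also the larger in the library labelled knockdown in the other comparison classes. These levels were 101 and 53.5 CPM in oligodendrocytes, 394 and 341 CPM in precursors, and 125 and 22.1 CPM in microglia. The ratio of Pde10a with free RNA subtracted is not given here. What RNA of other classes contributes to its ratio in the members was not otherwise tested. The interval of Ccdc18, a coiled-coil protein, lay below 0 in 1 of the 5 sub-clusters, that of Gm266 in 2, that of Gm27239 in 3 and that of C030018K13Rik in 4. Ranbp3l, which the fibroblast list also holds, stood at 110 and 206 CPM (-0.90, -1.16 to -0.66) and at -0.65 without sub-clusters 6 to 9. In the library labelled knockdown, Eya2, Pde10a, Ccdc18, Bicc1 and Pde7b of the 12 lower genes lay below a comparison class, such as Pde7b at 304 against 352 CPM.

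**Figure D5:**
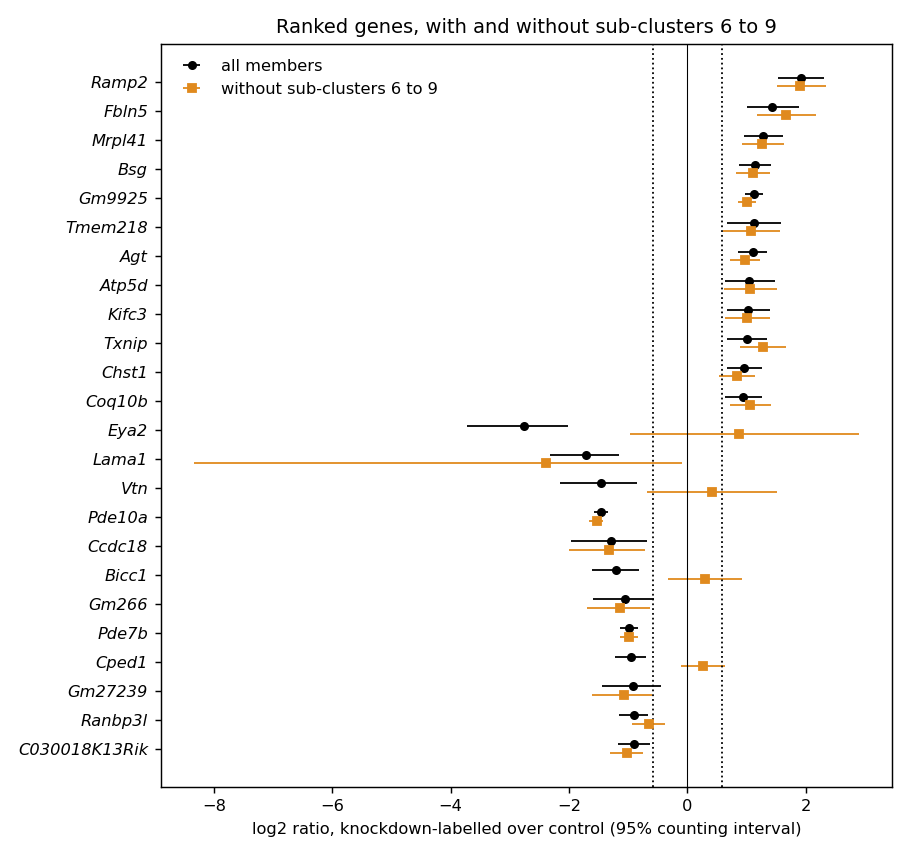
Log2 ratio (x axis) of the 12 highest and 12 lowest ranked genes (y axis) in astrocyte nuclei, over all members (black circles) and without sub-clusters 6 to 9 (orange squares), with 95% intervals that cover counting error only and dotted lines at 1.5-fold. The 12 higher genes keep their side, while Eya2, Vtn, Bicc1 and Cped1 move from below 0 to above 0.

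The same ranking without sub-clusters 6 to 9 added genes to both ends. Among the higher was Itm2c, an integral membrane protein (279 and 124 CPM, 1.17, 0.95 to 1.40), with intervals above 0 in each of sub-clusters 1 to 5. The highest comparison class for Itm2c reached 277 and 105 CPM. Col23a1, a transmembrane collagen, was also among the higher genes (70.6 and 25.9 CPM), but sub-cluster 5 held 56 of its UMIs against 1. Sub-clusters 1 to 4 together held 54 against 53 UMIs of it, a ratio of 0.47 (-0.11 to 1.04). Among the lower were Sh3pxd2b, a podosome adaptor (96.2 and 198 CPM, -1.04, -1.32 to -0.77), Irak2, a kinase of innate immune signalling (237 and 447 CPM, -0.91), and Neo1, the receptor neogenin (523 and 960 CPM, -0.88, -0.995 to -0.76). The intervals of Sh3pxd2b and Neo1 lay below 0 in all 5 sub-clusters and that of Irak2 in 4. In the library labelled knockdown, Irak2 lay below the highest comparison class (281 CPM).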

How the data were processed

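Nuclei of mouse hippocampus were profiled on the 10x Genomics 3′ V3 kit after dounce homogenization and flow sorting on propidium iodide, per the labels' protocols. The authors deposited UMI counts, not normalized, for 55357 genes, and per the file headers they came from Cell Ranger 9.0.1. Per the submitters' processing notes, bcl2fastq 5.0.1, Seurat 4.1.0 and the GRCm39 build were used too. The labels do not say whether introns were counted or how cell barcodes were told from empty ones. The reference at hand is GRCm38, so no gene coordinates are printed other than those of promoter windows.

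Members followed the rule at the head of the report, and doublets were kept, as the rule has no step for them. The members, the gene lists and the rules for named genes were chosen with earlier results of these data known. UMIs were summed per library and class. Log2 ratios had 0.5 UMI added, and a gene was measured with 50 UMIs over both libraries. Ratios carry exact conditional binomial intervals, levels exact Poisson intervals and shares exact Clopper-Pearson intervals, all at 95%. The calculation of ratios was checked on simulated counts. The text names the rule markers, the 12 highest and 12 lowest ranked genes, the leading genes of the class and of each sub-cluster, up to 4 genes of largest ratio and 4 of most UMIs per list, and the members a list is known for. Sub-clusters were found with scanpy 1.11.5 (1500 variable genes, 20 components, 15 neighbours, Leiden resolution 0.5), with the values centred within library. Scrublet marked 8.28% of nuclei in the library labelled knockdown. In the control its threshold marked 0.016%, a failure, so the top scores at 0.8% per 1000 barcodes were marked instead (10.9%). Free RNA was subtracted, as an alternative, at 31.8% and 21.9% of the library profile, from 26 neuron and oligodendrocyte markers. Further tools were Python 3.11.15, scipy 1.17.1 and, for the scaling factors of the alternative, edgeR 4.0.16 under R 4.3.3. Counts are per UMI with 3′ tags, so levels were compared between libraries and classes and not between genes. Some genes counted in the lists are not reported here by name.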

Additional observations from a re-analysis of the deposited data

How the results depend on the processing

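No paired analysis was possible because each group has 1 library, and leaving out a replicate was not possible for the same reason. Astrocyte nuclei numbered 367 in the library labelled knockdown with Syt1 limited to 1 UMI, and 293 in the control with Mog and Mag at 0. By sex-linked genes, 236 and 198 were male, and 187 and 353 female. Higher and lower genes numbered 287 and 192 at 200 UMIs, 7110 and 5613 at 1 UMI, and 537 and 408 with nuclei thinned to 1000 UMIs. The higher genes were 560 in male and 791 in female nuclei. The Bcas2 ratio kept its sign, from 0.77 with Mog and Mag at 0 to 1.68 in female nuclei.

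Ratios changed sign for Eya2 (0.87), Vtn (0.42), Bicc1 (0.30) and Cped1 (0.26) without sub-clusters 6 to 9, for the same genes (1.41, 0.31, 0.29 and 0.19) without sub-cluster 3 as well, and for Vtn (0.39), Bicc1 (0.17) and Cped1 (0.47) with 5 markers required. They also did for Cped1 in female nuclei (0.18), Id1 in thinned nuclei (-0.22) and Tnc in male nuclei (0.43). The cause was not tested. Subtraction of free RNA gave no value for genes left with under 3 UMIs. Sub-clusters 1 to 3 changed with the resolution and the centring. Depth limits genes such as Vim and Cdk6, and shares of nuclei with a UMI cover detection only.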
